A study of Mus musculus with 7 samples.

Results

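A set of 10 genes that break down heme or move iron across membranes was followed in hematopoietic stem cells (HSCs) with and without Cebpa: the heme oxygenases Hmox1 and Hmox2, the biliverdin reductases Blvra and Blvrb, the transferrin receptors Tfrc and Tfr2, the iron exporter Slc40a1, the iron importer Slc11a2, the ferrireductase Steap3 and the ferritin heavy chain Fth1. They were chosen by name as the enzymes and carriers of these steps, with earlier results of these data known. Shares of all genes given beside their counts are therefore a description, not a test of the set. Each gene was read from the 1 probe set annotated to it alone, so that 10 of 10 were measured among 19938 genes in all. HSCs were sorted as lineage-negative, Sca1+, c-Kit+, CD150+, CD48- cells from bone marrow of female C57BL/6 mice aged 10 to 12 weeks. Cebpa Δ/Δ mice (4 arrays) carried 2 floxed Cebpa alleles and the Mx1Cre transgene, and Cebpa fl/fl mice (3 arrays) carried the floxed alleles without Mx1Cre. Mx1Cre is switched on by interferon in many cell types, so that deletion was not restricted to HSCs, and pIpC, which induces interferon, was given to every mouse before killing at day 18. RNA was amplified before hybridization to Affymetrix Mouse Gene 1.0 ST arrays, and every level below is the log2 of the deposited RMA intensity. Arrays carry their genotype and the replicate number of their label.

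Heme, the iron-containing ring of hemoglobin and of the cytochromes, is opened by heme oxygenase into iron, carbon monoxide and biliverdin, which biliverdin reductase turns into bilirubin. Iron bound to transferrin enters cells through the transferrin receptor, is reduced by Steap3 in the endosome and passes into the cytosol through Slc11a2 (DMT1), where it is used or stored in ferritin. Slc40a1 (ferroportin) lets iron out again. In bone marrow the uptake genes are known for their high levels in red cell precursors, and Hmox1 and Slc40a1 for their role in macrophages that recycle iron from old red cells.

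Of the 10 genes, 6 were higher in Cebpa Δ/Δ than in Cebpa fl/fl HSCs at thresholds set after those of the study, a p under 0.05 and a change over 1.5-fold. The p is here limma's unadjusted p, since whether the study's p was adjusted is not stated. These were Hmox1, Blvrb, Slc40a1, Tfrc, Slc11a2 and Steap3, with changes of 1.76-fold to 4.23-fold, and 0 of the 10 were lower. Among all 19938 genes, 1.57% were higher and 0.617% were lower at the same thresholds. Fth1 also had a limma p under 0.05, at 1.18-fold, which made 7 of 10 genes that were higher by p alone, against 4.40% of all genes. In the same 7 genes all 4 Cebpa Δ/Δ arrays lay above all 3 Cebpa fl/fl arrays, which was so in 3.51% of all genes. The median log2 fold change was 1.001 over the 10 genes and 0.00 over all genes. After Benjamini-Hochberg adjustment over all genes, limma called 0 genes (0%) at an adjusted p under 0.05. At an unadjusted limma p under 0.05 there were 877 higher genes and 615 lower ones. None of the 10 differences passed the correction.

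**Figure D1:**
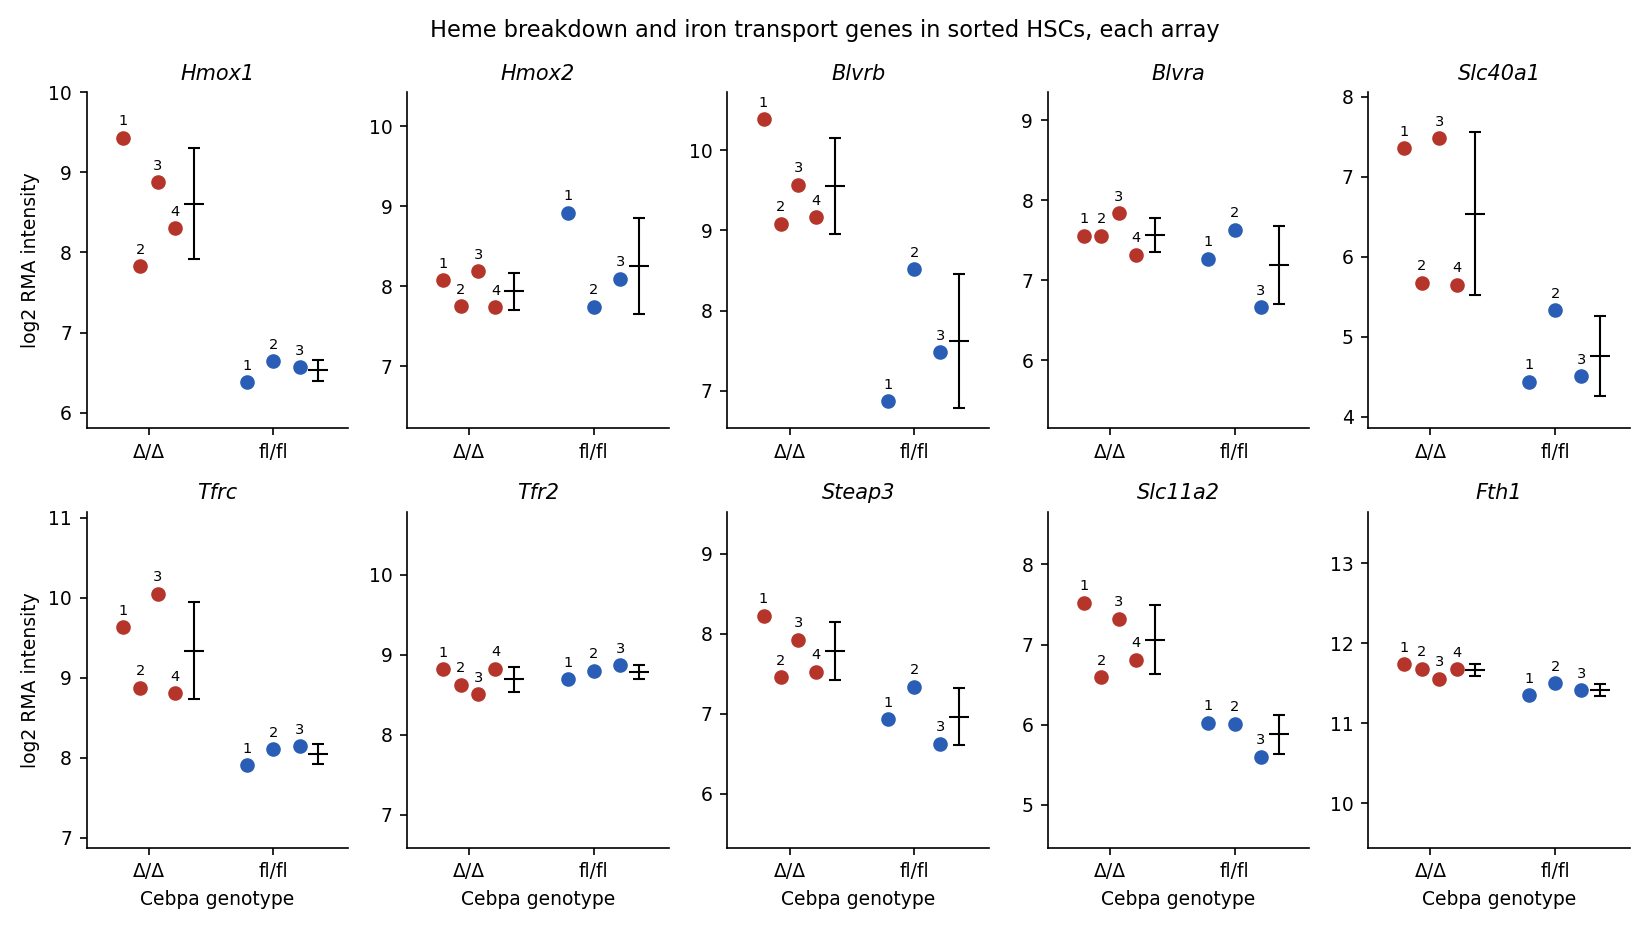
Log2 RMA intensity of each of the 10 genes in 4 Cebpa Δ/Δ arrays (red, left) and 3 Cebpa fl/fl arrays (blue, right), numbered by replicate, with the mean and SD of each genotype in black. All panels span the same number of log2 units, and the red and blue points are separate for Hmox1, Blvrb, Slc40a1, Tfrc, Steap3, Slc11a2 and Fth1 and overlap for Hmox2, Blvra and Tfr2.

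The first step of heme breakdown showed the largest change of the 10 genes. Hmox1 (probe set 10572897), the heme oxygenase that is induced by heme and by oxidative stress, measured 9.43, 7.83, 8.87 and 8.30 in Cebpa Δ/Δ arrays, against 6.38, 6.64 and 6.57 in Cebpa fl/fl arrays (replicates in the order of their numbers, here and below). The lowest Cebpa Δ/Δ array lay 1.19 log2 units above the highest Cebpa fl/fl array, and the Cebpa Δ/Δ arrays spread over 1.61 units where the Cebpa fl/fl arrays spread over 0.26. Its log2 fold change was 2.08 (SE 0.37, limma adjusted p = 0.337), a 4.23-fold higher level with a 95% interval of 2.29-fold to 7.82-fold. An exact two-sided permutation test over the 35 splits of the 7 arrays gave p = 0.0286, the smallest these group sizes allow, and 0.8001 after adjustment over all genes. The same smallest p was found for Blvrb, Tfrc, Slc11a2, Steap3 and Fth1.

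Hmox2 (probe set 10433292), the constitutive heme oxygenase, did not follow Hmox1. It measured 8.07, 7.75, 8.19 and 7.73 in Cebpa Δ/Δ arrays and 8.92, 7.74 and 8.09 in Cebpa fl/fl arrays. The genotypes overlapped, and the highest value was that of Cebpa fl/fl 1. The log2 fold change was -0.31 (SE 0.28, limma adjusted p = 0.779) with a 95% interval of -0.998 to 0.37, and without Cebpa fl/fl 1 it was 0.02. The difference between the 2 oxygenases was then compared directly, array by array, where only its change between genotypes can be read because levels of different probe sets are not comparable. This comparison and those of the other 2 pairs were added after the values were seen. Neither the p nor its adjustment over the pairs allows for that choice. Hmox1 minus Hmox2 lay between 0.08 and 1.36 in Cebpa Δ/Δ arrays and between -2.54 and -1.10 in Cebpa fl/fl arrays, so that their log2 fold changes differed by 2.40 (SE 0.47, 95% interval 1.18 to 3.62, exact permutation p = 0.0286, adjusted over 3 such pairs 0.0429).

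Of the 2 biliverdin reductases, Blvrb was higher and Blvra was not past the thresholds. Blvrb (probe set 10551347), the biliverdin reductase that also acts as a flavin reductase and is abundant in red cells, measured 10.39, 9.09, 9.57 and 9.17 in Cebpa Δ/Δ arrays, against 6.87, 8.51 and 7.48 in Cebpa fl/fl arrays. The groups were separate by 0.57 log2 units although the Cebpa fl/fl arrays spread over 1.65 units. Blvrb thus had a log2 fold change of 1.93 (SE 0.47, limma adjusted p = 0.505), which is 3.82-fold with a 95% interval of 1.74-fold to 8.38-fold.

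Blvra (probe set 10475708), the reductase that makes most of the bilirubin of the adult, measured 7.55, 7.55, 7.84 and 7.32 in Cebpa Δ/Δ arrays and 7.27, 7.63 and 6.66 in Cebpa fl/fl arrays. Cebpa fl/fl 2 lay above 3 of the 4 Cebpa Δ/Δ arrays. For Blvra the log2 fold change was 0.38 (SE 0.24, limma adjusted p = 0.735) with a 95% interval of -0.19 to 0.95, and without Cebpa fl/fl 2 it was 0.60 and past the thresholds. Blvrb minus Blvra was 1.53 to 2.84 in Cebpa Δ/Δ arrays and -0.40 to 0.89 in Cebpa fl/fl arrays. The 2 log2 fold changes differed by 1.56 (SE 0.49, 95% interval 0.30 to 2.81, exact permutation p = 0.0286, adjusted over the 3 pairs 0.0429).

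Of the 2 transferrin receptors, Tfrc was higher and Tfr2 was not. Tfrc (probe set 10435075), the receptor that brings transferrin-bound iron into dividing and hemoglobin-making cells, measured 9.63, 8.87, 10.05 and 8.81 in Cebpa Δ/Δ arrays, against 7.90, 8.10 and 8.14 in Cebpa fl/fl arrays. The Cebpa fl/fl arrays lay within 0.24 log2 units of each other, and the nearest Cebpa Δ/Δ array stood 0.67 units above them. The log2 fold change was 1.29 (SE 0.32, limma adjusted p = 0.507), which is 2.45-fold with a 95% interval of 1.44-fold to 4.16-fold.

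Tfr2 (probe set 10526630), which senses transferrin-bound iron in liver and in red cell precursors, measured 8.82, 8.63, 8.50 and 8.83 in Cebpa Δ/Δ arrays and 8.69, 8.80 and 8.87 in Cebpa fl/fl arrays. The genotypes overlapped, and 2 of the 4 Cebpa Δ/Δ arrays lay within the range of the Cebpa fl/fl arrays. The log2 fold change was -0.09 (SE 0.10, limma adjusted p = 0.809), with a 95% interval of -0.33 to 0.14 that does not reach a 1.5-fold change in either direction. Tfrc minus Tfr2 lay between -0.02 and 1.54 in Cebpa Δ/Δ arrays and between -0.79 and -0.69 in Cebpa fl/fl arrays. The log2 fold changes differed by 1.38 (SE 0.41, 95% interval 0.33 to 2.44), and the exact permutation p was 0.0571, also after adjustment over the 3 pairs.

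The stretches of 250 bases before the start of transcription are given for both biliverdin reductases and both transferrin receptors, because in each pair 1 gene was called higher and the other was not. They are from RefSeq (GRCm38.p6), which held such windows for 7 of the 10 genes (Hmox2, Blvra, Blvrb, Tfrc, Tfr2, Steap3 and Fth1), 17 windows in all. For a gene with several annotated starts the most upstream is shown, 5′ to 3′ along the gene. Capitals mark CACCC or its reverse complement GGGTG, the letters that erythroid Krüppel-like factors such as Klf1 bind.
Blvrb, chr7:27447728-27447977, + strand: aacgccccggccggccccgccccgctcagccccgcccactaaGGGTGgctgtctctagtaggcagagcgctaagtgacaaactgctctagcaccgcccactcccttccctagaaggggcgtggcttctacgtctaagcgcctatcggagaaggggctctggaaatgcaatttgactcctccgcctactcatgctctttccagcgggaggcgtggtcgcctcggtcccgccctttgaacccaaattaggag
Blvra, chr2:127070407-127070656, + strand: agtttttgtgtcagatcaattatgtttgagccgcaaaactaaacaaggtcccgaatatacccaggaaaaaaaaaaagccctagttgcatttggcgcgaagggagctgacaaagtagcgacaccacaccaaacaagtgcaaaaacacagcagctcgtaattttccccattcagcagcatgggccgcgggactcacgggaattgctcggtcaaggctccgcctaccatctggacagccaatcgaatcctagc
Tfrc, chr16:32608646-32608895, + strand: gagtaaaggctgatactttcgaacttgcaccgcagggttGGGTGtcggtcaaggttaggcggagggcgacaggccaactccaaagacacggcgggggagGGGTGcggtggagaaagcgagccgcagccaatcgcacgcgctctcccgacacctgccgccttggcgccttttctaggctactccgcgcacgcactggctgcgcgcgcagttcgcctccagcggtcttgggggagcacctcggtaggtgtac
Tfr2, chr5:137569590-137569839, + strand: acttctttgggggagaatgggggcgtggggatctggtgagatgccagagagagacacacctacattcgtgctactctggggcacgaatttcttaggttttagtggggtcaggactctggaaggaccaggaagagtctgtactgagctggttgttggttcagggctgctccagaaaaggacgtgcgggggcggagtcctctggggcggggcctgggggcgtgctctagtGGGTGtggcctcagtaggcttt

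The window of Tfrc held CACCC letters at 2 places and those of Blvrb and Tfr2 at 1 place each, and the window of Blvra held none. Over all 17 windows CACCC was present in 11, from 5 of the 7 genes, against 52.0% of 32851 windows of the same length over all genes. The letters that GATA factors bind, GATA with A or T before it and A or G after it, were in 4 of the 17 windows (1 each of Steap3, Tfr2, Blvrb and Hmox2), against 26.5% of all windows. The C/EBP letters TTGCNNAA were in 2 windows (Steap3 and Fth1), against 9.56% of all windows. The letters TGACNNNGC, the core of the antioxidant response element through which Nfe2l2 acts, were in 1 (Blvra), against 10.2%, and CCAAT was in 5, against 33.8%. All letters were read on both strands, and no matches of different motifs overlapped. Matches therefore occurred both in genes that were called higher and in Tfr2 and Hmox2, which were not, and a match describes letters, not binding. Hmox1, Slc40a1 and Slc11a2 had no window and are not covered by these counts. The study names Hmox1 among deregulated genes with a nearby region bound by C/EBPα in lineage-negative, Sca1+, c-Kit+ cells. The part of that binding in the level of Hmox1 was not tested.

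The genes that reduce iron in the endosome and pass it into the cytosol were both higher. Slc11a2 (probe set 10432573), an importer of ferrous iron, measured 7.52, 6.59, 7.32 and 6.81 in Cebpa Δ/Δ arrays, against 6.02, 6.01 and 5.60 in Cebpa fl/fl arrays. The groups were 0.57 log2 units apart. The difference came to 1.18 on the log2 scale (SE 0.25, limma adjusted p = 0.412), which is 2.27-fold, with a 95% interval of 0.58 to 1.79 on the log2 scale.

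Steap3 (probe set 10357249), the endosomal reductase that turns ferric into ferrous iron in red cell precursors, measured 8.23, 7.46, 7.93 and 7.53 in Cebpa Δ/Δ arrays, against 6.93, 7.34 and 6.63 in Cebpa fl/fl arrays. Cebpa Δ/Δ 2 stood only 0.12 log2 units above Cebpa fl/fl 2. In log2 units the difference was 0.82 (SE 0.24, limma adjusted p = 0.639), which is 1.76-fold with a 95% interval of 1.17-fold to 2.65-fold. Without Cebpa fl/fl 3 the log2 fold change was 0.65 and the limma p was 0.0530, no longer under 0.05.

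Slc40a1 (probe set 10354374), the only known iron exporter of mammalian cells, showed the widest spread. It measured 7.35, 5.67, 7.48 and 5.65 in Cebpa Δ/Δ arrays, against 4.44, 5.33 and 4.51 in Cebpa fl/fl arrays. Cebpa Δ/Δ 1 and 3 stood apart from Cebpa Δ/Δ 2 and 4, which lay just above Cebpa fl/fl 2. Cebpa fl/fl 1 and 3 were near the lower quartile of all gene levels (4.43), and Cebpa fl/fl 2 lay between it and the median gene level of 5.86. On average the level was 1.78 log2 units higher (SE 0.57, limma adjusted p = 0.655), which is 3.43-fold with a 95% interval of 1.33-fold to 8.86-fold, and the exact permutation p was 0.0857. The limma p was 0.0669 without Cebpa fl/fl 1 and 0.0624 without Cebpa fl/fl 3, at log2 fold changes of 1.62 and 1.65.

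Iron storage differed least among the 7 genes whose arrays were separate. Fth1 (probe set 10461402), the ferritin chain that oxidizes iron for storage, measured 11.74, 11.68, 11.56 and 11.67 in Cebpa Δ/Δ arrays, against 11.35, 11.50 and 11.41 in Cebpa fl/fl arrays. The groups were 0.06 log2 units apart and neither spread over more than 0.18. The difference in log2 units was 0.24 (SE 0.06, limma adjusted p = 0.519), which is 1.18-fold with a 95% interval of 1.07-fold to 1.31-fold, so that the interval excluded a 1.5-fold change. Fth1 has processed copies elsewhere in the genome whose RNA a probe set may not tell apart.

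**Figure D2:**
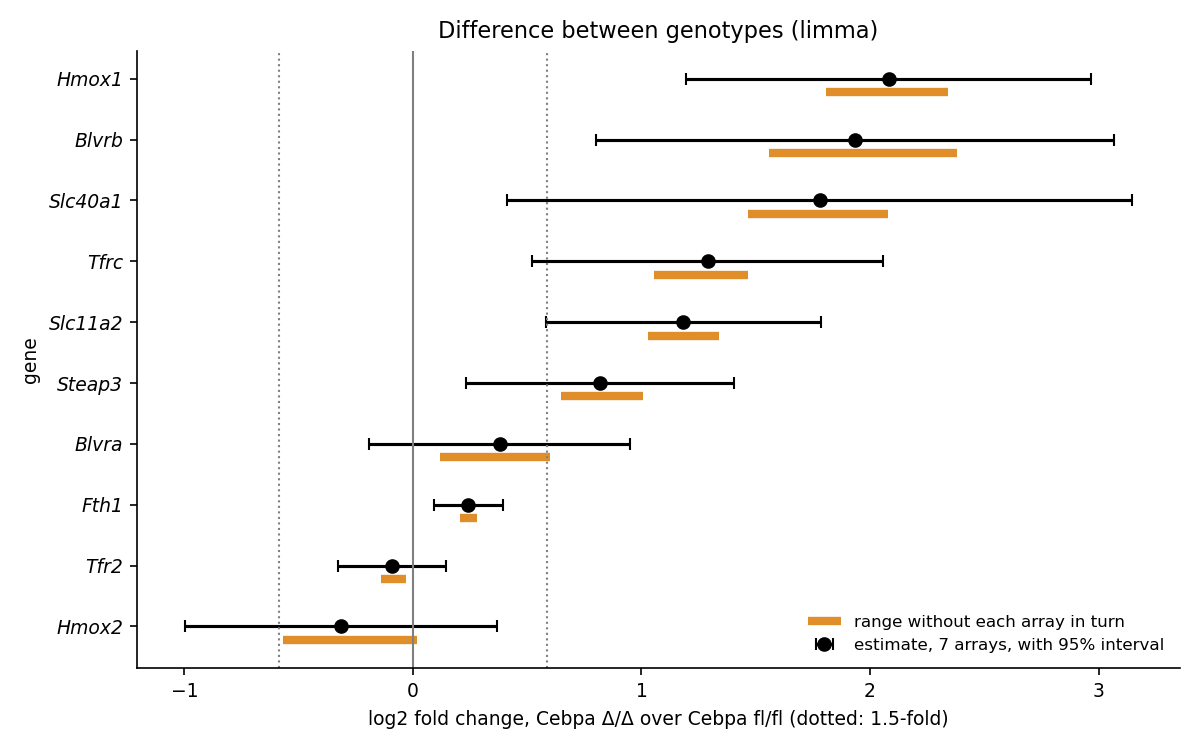
Log2 fold change of each gene, Cebpa Δ/Δ over Cebpa fl/fl, from limma on 7 arrays with the 95% interval (black), and the range of the estimate when each array was left out in turn (orange). Hmox1 leads at 2.08 and Hmox2 closes the order at -0.31, and the orange ranges stay above 0 for Hmox1, Blvrb, Slc40a1, Tfrc, Slc11a2, Steap3, Blvra and Fth1.

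When the intervals of the estimates are set side by side, those of Hmox1, Blvrb, Slc40a1, Tfrc, Slc11a2 and Steap3 overlapped, and their order was not tested. Leaving out each array in turn moved the log2 fold change of Hmox1 between 1.81 and 2.34 and that of Blvrb between 1.56 and 2.38. That of Tfrc moved between 1.05 and 1.47 and that of Slc11a2 between 1.03 and 1.34. Each kept a limma p under 0.05 throughout, as did Fth1 at 0.21 to 0.28. Cebpa fl/fl 1 and Cebpa Δ/Δ 3 had the lowest mean correlation with the other arrays (0.979 each). Without both, 3 of the 10 genes were past the thresholds, which were Hmox1, Tfrc and Slc11a2, and the limma p was 0.0527 for Blvrb, 0.101 for Steap3 and 0.126 for Slc40a1.

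The 4 Cebpa Δ/Δ arrays were not alike in these genes. In 8 of the 10, namely Hmox1, Hmox2, Blvra, Blvrb, Tfrc, Slc40a1, Slc11a2 and Steap3, both Cebpa Δ/Δ 1 and Cebpa Δ/Δ 3 lay above both Cebpa Δ/Δ 2 and Cebpa Δ/Δ 4, an order that 13.8% of all genes showed and that was noticed after the values were seen. The gap was widest in Slc40a1, with means of 7.42 over Cebpa Δ/Δ 1 and 3 and 5.66 over Cebpa Δ/Δ 2 and 4, and it was 9.15 against 8.06 in Hmox1 and 9.84 against 8.84 in Tfrc. Tfr2 and Fth1 did not show this order. In Hmox1, Blvrb, Tfrc, Slc40a1, Slc11a2 and Steap3 the lower pair, Cebpa Δ/Δ 2 and 4, still lay above every Cebpa fl/fl array.

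All measured markers of red cell precursors and some markers of macrophages were also higher in Cebpa Δ/Δ arrays at the thresholds. Red cells had been lysed, and the sort had left out cells with Ter119, CD11b or Gr1 on their surface. Of the erythroid markers analysed here, 8 of 8 were higher at the thresholds, with a median log2 fold change of 2.15. Slc4a1, the anion exchanger of the red cell membrane, measured 9.32 ± 0.48 in Cebpa Δ/Δ (SD, n = 4) and 6.24 ± 0.61 in Cebpa fl/fl arrays (SD, n = 3), and Klf1, an erythroid transcription factor, measured 8.43 ± 0.58 and 6.32 ± 0.56. Alas2, the first enzyme of erythroid heme synthesis, had a log2 fold change of 2.20 (SE 0.35), and those of Rhag, a Rhesus-associated channel, and Ank1, an anchor of the membrane skeleton, were 3.08 (SE 0.51) and 1.94 (SE 0.31). The summed linear intensity of the 8 markers was 4029, 2004, 3281 and 2069 in the Cebpa Δ/Δ arrays, against 416, 845 and 465 in Cebpa fl/fl. The sum was again higher in Cebpa Δ/Δ 1 and 3 than in Cebpa Δ/Δ 2 and 4, and Cebpa fl/fl 2 had the highest sum of its genotype. Of the heme and iron genes called higher, Hmox1, Blvrb, Slc40a1 and Steap3 were also highest there among Cebpa fl/fl arrays. Tfrc was instead highest in Cebpa fl/fl 3 (8.14) and Slc11a2 in Cebpa fl/fl 1 (6.02).

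Of 16 macrophage markers, all measured, 6 were higher at the thresholds and 0 were lower, with a median log2 fold change of 0.40. The 6 were Spic, the transcription factor of iron-recycling macrophages, at 2.48 (SE 0.34), the complement genes C1qc at 2.02 (SE 0.43) and C1qb at 1.81 (SE 0.41), the mannose receptor Mrc1 at 1.33 (SE 0.48), the adhesion molecule Vcam1 at 1.24 (SE 0.38) and the secreted scavenger protein Cd5l at 1.20 (SE 0.36). Adgre1, which encodes the surface receptor that defines most mouse macrophages, lay between 3.82 and 4.14 in Cebpa Δ/Δ and between 3.62 and 3.82 in Cebpa fl/fl arrays, below the lower quartile of all gene levels in every array. Csf1r, the macrophage growth factor receptor, lay between 4.50 and 5.16 in Cebpa Δ/Δ and between 4.55 and 4.71 in Cebpa fl/fl arrays. Of the 6 higher markers, Cd5l lay below the lower quartile (4.43) in every Cebpa fl/fl array and in Cebpa Δ/Δ 2 and 4. Mrc1 lay below it in every Cebpa fl/fl array. The summed intensity of the 16 markers was 1765, 956, 1429 and 1172 in Cebpa Δ/Δ arrays and 610, 715 and 757 in Cebpa fl/fl arrays. The part of either cell type in the levels of Hmox1, Blvrb, Slc40a1, Tfrc, Slc11a2 and Steap3 was not tested, and in sorted bulk RNA more cells of a type and more RNA per cell cannot be told apart.

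**Figure D3:**
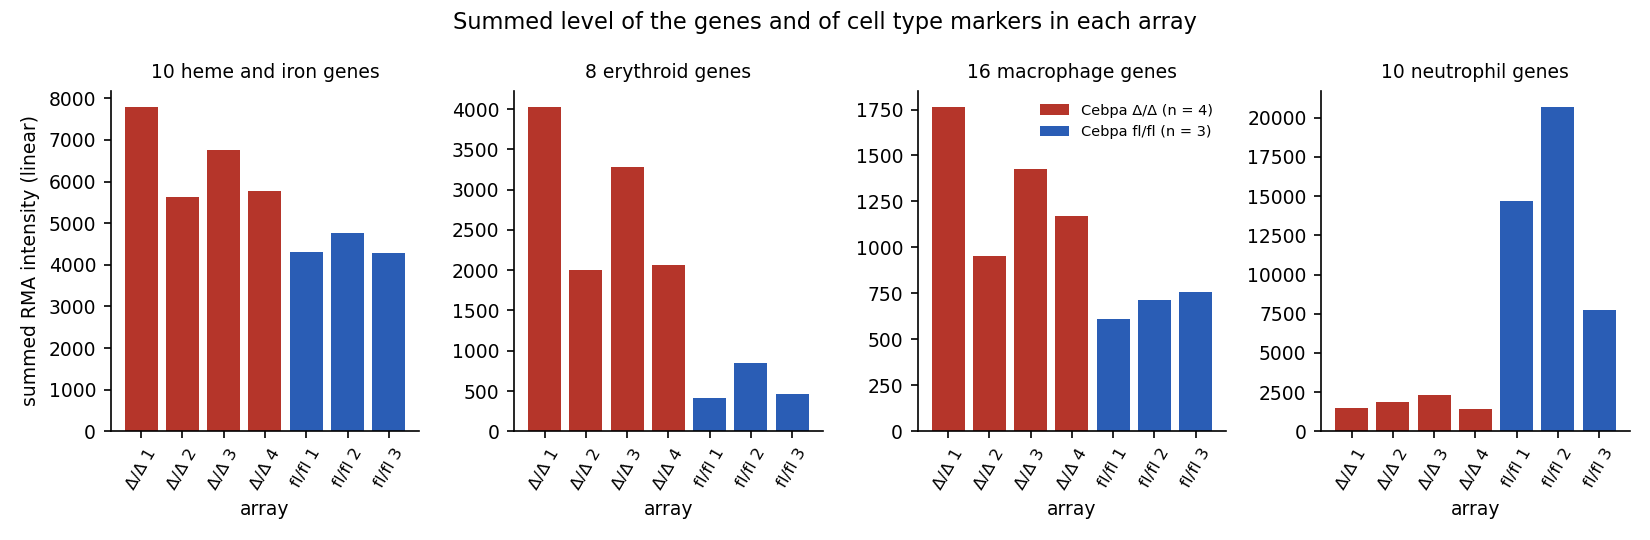
Summed linear RMA intensity in each array of the 10 heme and iron genes and of measured erythroid, macrophage and neutrophil markers, with 4 Cebpa Δ/Δ arrays in red and 3 Cebpa fl/fl arrays in blue. The vertical axes differ in scale and start at 0, and in the first 3 panels Cebpa Δ/Δ 1 and 3 are the highest bars, whereas neutrophil markers are highest in Cebpa fl/fl arrays.

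Neutrophil markers ran the other way. Of 10 measured, 7 were lower and 0 were higher, with a median log2 fold change of -3.67, and their summed intensity was 1437 to 2316 in Cebpa Δ/Δ arrays and 7711 to 20699 in Cebpa fl/fl arrays. The targeted gene, Cebpa, measured 5.22 ± 0.08 in Cebpa Δ/Δ (SD, n = 4) and 5.64 ± 0.11 in Cebpa fl/fl arrays (SD, n = 3), a log2 fold change of -0.41 (SE 0.07, limma adjusted p = 0.337) in which the arrays did not overlap. Both groups lay below the median gene level of 5.86. Of 6 measured genes of stem cells or of the sort gate, Cd48, the antigen that the sort excluded, was higher in Cebpa Δ/Δ arrays. Its log2 fold change was 2.75 (SE 0.58, limma adjusted p = 0.412). Kit, Hlf, Procr, Slamf1 and Mecom passed the thresholds in neither direction.

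Most of the surrounding pathway was not past the thresholds. Of 41 other genes of iron and heme handling analysed here, 4 were higher at the thresholds, 1 was lower and 36 were neither. Among all genes, 1.57% were higher and 0.617% were lower. The median log2 fold change of the 41 genes was 0.04. Some of the uncalled genes were near the floor, where a difference can hardly be seen. Hamp, Heph, Cp, Steap1 and Steap2 lay below the lower quartile of all gene levels (4.43) in every array. Glrx5, a mitochondrial glutaredoxin that builds iron-sulfur clusters and is needed for heme synthesis, measured 9.47, 8.41, 8.97 and 8.49 in Cebpa Δ/Δ arrays, against 7.90, 7.72 and 7.50 in Cebpa fl/fl arrays. The genotypes were separate, with a log2 fold change of 1.13 (SE 0.27, limma adjusted p = 0.494).

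Slc39a8 (ZIP8), an importer of zinc, manganese and iron, measured 7.13, 6.66, 6.91 and 6.69 in Cebpa Δ/Δ arrays, against 5.74, 6.33 and 6.06 in Cebpa fl/fl arrays (log2 fold change 0.81, SE 0.17, limma adjusted p = 0.426). Its close relative Slc39a14 (ZIP14) measured 5.58, 5.76, 5.45 and 5.61 in Cebpa Δ/Δ arrays, against 6.16, 5.93 and 6.03 in Cebpa fl/fl arrays. All Cebpa Δ/Δ arrays were lower, at a log2 fold change of -0.44 (SE 0.09, limma adjusted p = 0.412) that stayed under 1.5-fold. Slc25a37 (mitoferrin 1), the mitochondrial iron importer of red cell precursors, and Abcb10, a mitochondrial transporter that stabilizes it, both rose by 0.62 on the log2 scale (SE 0.20 and 0.19, limma adjusted p = 0.663 and 0.644). Without Cebpa Δ/Δ 1 they were 0.52 and 0.50, which left 2 genes above the thresholds, Glrx5 and Slc39a8. For Slc25a37 the value was 0.50 without Cebpa Δ/Δ 3 and 0.56 without Cebpa fl/fl 2, and for Abcb10 it was 0.48 without Cebpa fl/fl 1 and 0.58 without Cebpa fl/fl 3, all under 1.5-fold.

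Hp, the plasma protein haptoglobin that captures free hemoglobin and is also held in neutrophil granules, was the gene that was lower. It measured 5.74, 4.91, 5.64 and 5.67 in Cebpa Δ/Δ arrays, against 6.83, 7.91 and 5.91 in Cebpa fl/fl arrays. The log2 fold change was -1.39 (SE 0.47, limma adjusted p = 0.663), and the limma p was 0.0598 without Cebpa Δ/Δ 2, 0.0605 without Cebpa fl/fl 1 and 0.0535 without Cebpa fl/fl 2.

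The regulators on this list were not among the genes past the thresholds. These are levels of RNA, and the activity of the proteins was not measured. Bach1, the heme-sensing repressor of Hmox1, had a log2 fold change of 0.02 (SE 0.16) with arrays of 7.18 to 7.73 in Cebpa Δ/Δ and 7.24 to 7.72 in Cebpa fl/fl. Nfe2l2 (NRF2), an activator of Hmox1 under oxidative stress, had 0.47 (SE 0.25, limma adjusted p = 0.703). The iron regulatory proteins, which bind the mRNAs of Tfrc, Slc40a1, Slc11a2 and the ferritins, had 0.20 for Aco1 (SE 0.08, limma adjusted p = 0.664) and 0.15 for Ireb2 (SE 0.12, limma adjusted p = 0.762). Ftl1, the ferritin light chain, measured 11.12 on average in Cebpa Δ/Δ and 10.82 in Cebpa fl/fl arrays, which overlapped (log2 fold change 0.29, SE 0.23, limma adjusted p = 0.754). The heme carriers Slc48a1 and Flvcr1 differed by 0.03 (SE 0.07) and 0.18 (SE 0.14) on the log2 scale. For Ncoa4, which delivers ferritin for breakdown, the difference was -0.04 (SE 0.17).

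**Figure D4:**
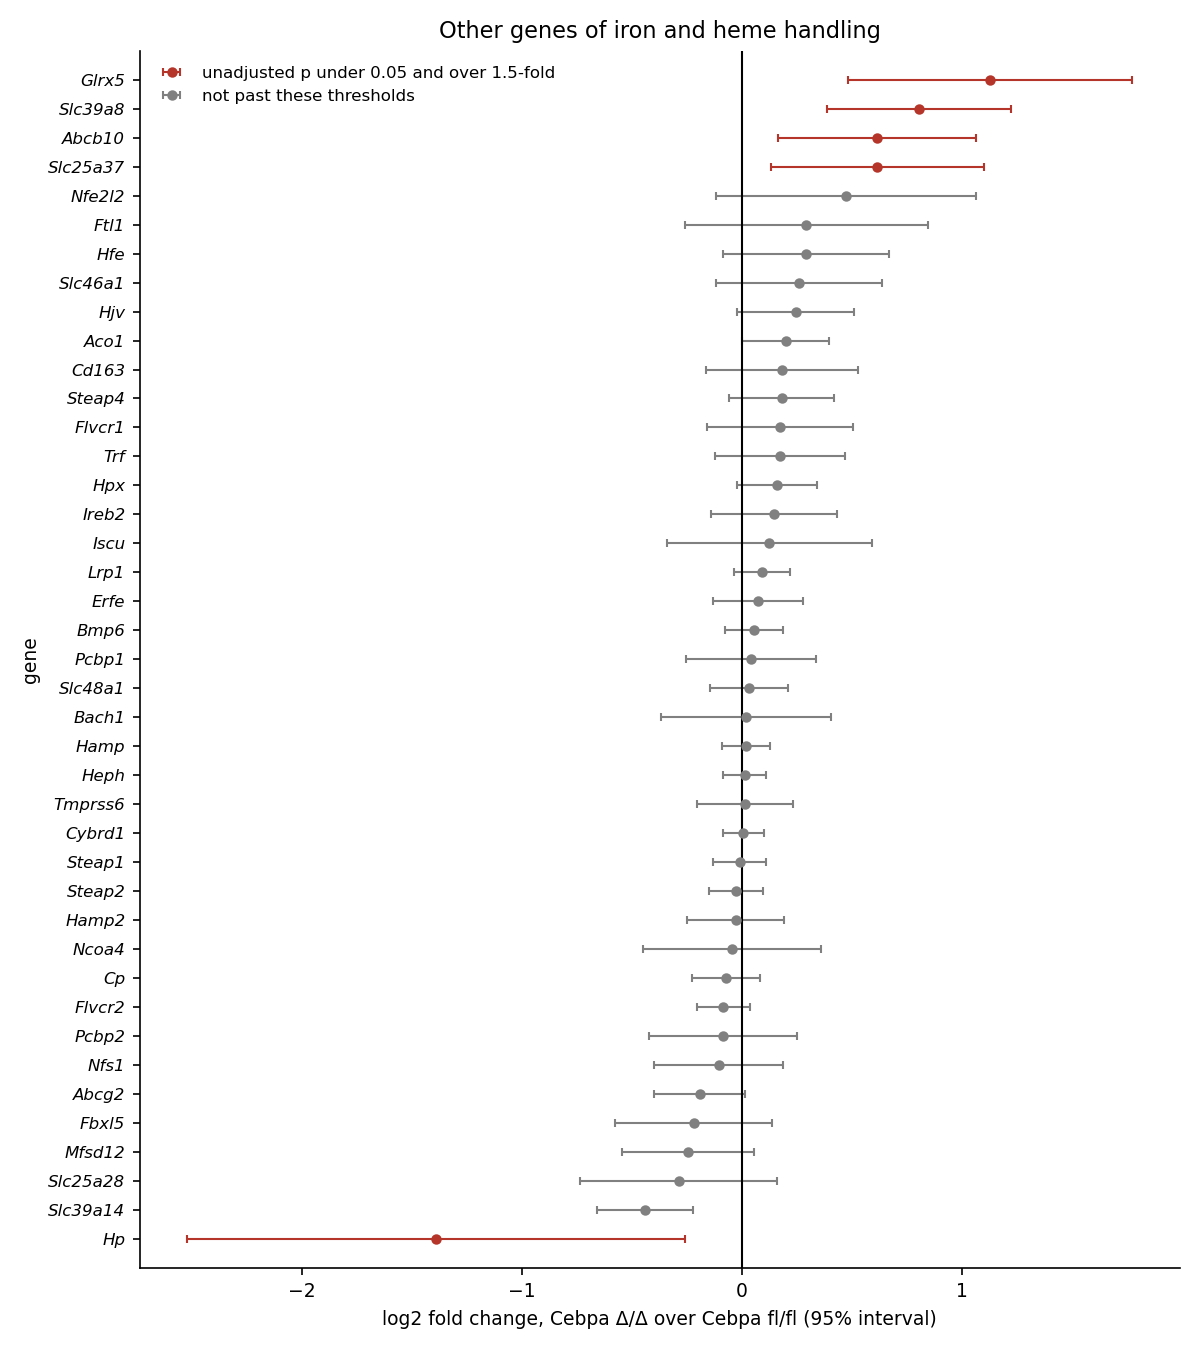
Log2 fold change with 95% interval, Cebpa Δ/Δ over Cebpa fl/fl, of 41 other genes of iron and heme handling, with genes past the thresholds of unadjusted p under 0.05 and 1.5-fold in red. Glrx5, Slc39a8, Abcb10 and Slc25a37 lie on the right, Hp lies on the left, and 36 genes are in gray.

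Genes whose profile over the 7 arrays was most like that of a member were listed by Pearson's r of log2 values among 9968 genes above the median level, as a description that includes the difference between genotypes. Closest to Hmox1 were C1qb (r = 0.990), Tspan8 (0.985), Gstp3 (0.984), Fech (0.983) and C1qc (0.981), of which Fech is the enzyme that inserts iron into heme. Closest to Blvrb were Abcb10 (0.994), Slc39a8 (0.994), Kel (0.991), Slc38a5 (0.989) and Gadd45gip1 (0.985), of which Kel encodes a red cell blood group antigen. Closest to Tfrc were St3gal6 (0.996), Anp32b (0.988), Irf7 (0.985), Fcf1 (0.981) and Dlgap5 (0.980), and closest to Slc40a1 were Golph3 (0.992), Metap2 (0.990), Tspan33 (0.989), Nudt9 (0.989) and Cenpp (0.987). The 4 lists had no gene in common.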

How the data were processed

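Gene expression was measured in HSCs of 4 Cebpa Δ/Δ and 3 Cebpa fl/fl mice on Affymetrix arrays. The deposited intensity values were made by the authors with RMA (background correction, quantile normalization and summary per probe set), on a linear scale from 1.51 to 9840, which hides any change in the total RNA of a cell. Partek Genomics Suite is the software given in the study's methods, and affy appears beside RMA in the submitters' processing notes. Because log2 values had been assumed when the tests were written, log2 was taken without a pseudocount. Array medians were 46.2 to 50.4, and precision is limited by the 7 arrays. In the design text the mice number 4 and 3, like the arrays, whereas the extract protocol speaks of triplicates for both genotypes, and each array was taken as 1 mouse. If that is wrong, the p-values measure technical spread in part.

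Of 35556 probe sets, 21789 carried 1 gene symbol, 1621 several and 12146 none, and names came from the platform annotation, brought up to date with RefSeq. Of several probe sets for a gene the one with the highest mean was used, which left 19938 genes. The comparison of genotypes used lmFit and eBayes of limma (3.58.1, under R 4.3.3), as Cebpa Δ/Δ minus Cebpa fl/fl and with Benjamini-Hochberg adjustment over all genes. The study's thresholds were read from limma's p, because its own test for the arrays, and whether its p was adjusted, are not given in the sources used here. For a single value, all 35 splits of the arrays gave an exact permutation test (two-sided). Intervals are 95% and not adjusted. The fit was tested on simulated data. The members and lists were chosen with earlier results of these data known. Some listed genes are not reported here. Of each list, counts and the 4 smallest p were to be named, with the 5 most similar genes for Hmox1, Blvrb, Tfrc and Slc40a1. Regulators and carriers such as Bach1, and Adgre1 and Csf1r, were named after their values were seen.

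Same-numbered arrays of the genotypes did not deviate together (correlations of -0.02, 0.10 and -0.18), so no block was used. Alternatives were other normalizations, a floor, an offset of 16, a filter on low levels, averaged probe sets, no moderation, array weights, a replicate block and left-out arrays.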

Additional observations from a re-analysis of the deposited data

Results flagged for a closer look

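Hp was the 1 gene among those named whose Cebpa Δ/Δ arrays held a value far from the others. Cebpa Δ/Δ 2 measured 4.91, against 5.64 in the nearest of the other Cebpa Δ/Δ arrays, a gap of 0.877 of the group's whole range. Chance alone would mark about 1 in 20 groups of 4, and the Cebpa fl/fl group of 3 was too small for this check. None of the 10 heme and iron genes was marked in this way.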

How the results depend on the processing

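With 17 alternatives, the 10 heme and iron genes gave 169 estimates (Slc40a1 lies below the median level and drops out of 1). Of these, 160 kept the direction and the side of the study's thresholds, 7 kept the direction but were no longer past them (3 each for Slc40a1 and Steap3, 1 for Blvrb), 1 passed them newly (Blvra) and 1 changed sign (Hmox2, 0.019 without Cebpa fl/fl 1, in a leave-one-out range of -0.57 to 0.019). The count of the 10 genes past the thresholds was 6 higher, 4 to 7 with each array left out in turn, and 3 without Cebpa fl/fl 1 and Cebpa Δ/Δ 3 together, and it was 0 lower in all 17. Separate arrays were seen in 7 to 8 genes under the 11 alternatives in which they were counted. Cyclic loess moved the median of all genes by 0.0016. Of the other iron and heme genes, 4 were higher, 2 to 4 with each array left out and 2 without both arrays. The number of lower genes was 1 (Hp), 0 to 1 with each array left out (Hp was past the thresholds in 4 of these 7 fits), 0 without both arrays and 0 with the replicate block. Genes at an adjusted p under 0.05 numbered 0, 5 when only genes above the median level were tested (fewer tests), and 0 to 3 with each array left out, 3 without Cebpa fl/fl 3 and 1 each without Cebpa Δ/Δ 2 or 4. The cause of the other changes was not tested. With the replicate block, Steap3 had a log2 fold change of 0.90 (limma p = 0.0509), and no same-numbered pair correlated best with its own number. The differences between the oxygenases, the reductases and the transferrin receptors, which with their alternatives were chosen after seeing the data, kept their direction without each array in turn.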
